A study of Mus musculus with 16 samples.

Results

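Long m6A peaks, those of 300 bases or more in the deposited peak lists of mouse liver, were described here. They were chosen by their listed length alone, as every entry of at least 300 bases in any of 8 lists, and numbered 977 of 28297 peaks (3.45%). The remaining 27320 peaks were shorter. The long peaks lay in 454 of 17936 merged regions and in 420 of 8284 genes with any peak (5.07%). A region joins the peaks of all livers that share at least 1 base within a gene.

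N6-methyladenosine (m6A) is a methyl mark that a writer complex with the catalytic subunit Mettl3 places on adenosines of messenger RNA, that erasers such as Fto and Alkbh5 can remove and that readers of the YTH family bind. It is known to lie most often in long internal exons and around the stop codon, and in the liver it has been tied to the turnover of transcripts of lipid metabolism. In methylated RNA immunoprecipitation sequencing (MeRIP-seq), fragmented RNA is captured with an antibody to m6A, and a peak is a stretch where captured fragments pile up over the background. A long peak can therefore hold several methylated sites that the method does not separate.

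The samples were livers of 4 male db/db mice and 4 male lean mice of strain C57BL/6. The db/db mice carry a defective leptin receptor gene, so that they overeat and become obese and diabetic, and the allele is not restricted to the liver. The labels give db/db in place of a strain for those mice, and no age. Each mouse gave 1 immunoprecipitated library, with 1 peak list, and 1 input library, which was not analysed here. The series concerned fatty liver disease, and the genotypes were compared for what obesity and diabetes change in the liver's m6A map. Lists held between 2475 and 4807 peaks. Sequencing depth was unknown, the peaks do not give expression, and a lack of a peak cannot be told apart from low expression of its gene. The deposited values cannot check the tissue, and of 10 hepatocyte marker genes 5 had a peak of any length and 0 a long one.

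The sequences shown first are at gene starts, because long peaks were scarce there. Of 740 long peaks in genes with a known start, 8 (1.08%) reached the first 50 bases of the gene, against 3036 of 20713 shorter peaks (14.7%). In each liver the share of long peaks there was between 0 and 5%, and that of shorter peaks between 9.01% and 20.3%. All 8 came from 3 livers, 4 of them from db/db 1, 1 from db/db 3 and 3 from lean 4. The windows below are from RefSeq, build GRCm38.p6, whose coordinates are those of mm10. Each runs 5′ to 3′ on the gene's strand over 100 bases before and 30 bases after the start, with the bases that the long peak covers in capitals. They are those of Slc27a2, a transporter and acyl-CoA synthetase for very long chain fatty acids (chr2:126552924-126553053, plus strand), Dusp1, a phosphatase of MAP kinases (chr17:26508443-26508572, minus strand), Aldh4a1, a mitochondrial enzyme of proline breakdown (chr4:139622794-139622923, plus strand), and Id3, an inhibitor of DNA-binding factors (chr4:136143722-136143851, plus strand).
Slc27a2: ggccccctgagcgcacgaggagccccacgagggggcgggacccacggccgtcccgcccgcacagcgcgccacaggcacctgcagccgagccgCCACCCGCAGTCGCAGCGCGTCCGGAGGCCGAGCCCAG
Dusp1: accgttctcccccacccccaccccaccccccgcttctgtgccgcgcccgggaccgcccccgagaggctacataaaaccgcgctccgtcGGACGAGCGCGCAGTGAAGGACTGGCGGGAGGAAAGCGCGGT
Aldh4a1: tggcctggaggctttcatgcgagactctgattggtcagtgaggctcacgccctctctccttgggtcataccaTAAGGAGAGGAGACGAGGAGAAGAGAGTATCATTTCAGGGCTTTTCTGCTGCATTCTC
Id3: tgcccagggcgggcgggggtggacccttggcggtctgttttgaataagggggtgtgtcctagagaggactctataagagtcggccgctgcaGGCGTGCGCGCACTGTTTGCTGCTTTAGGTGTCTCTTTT

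Of the 8 windows, 4 are shown, chosen after their values were seen. Covered were 38 bases of the Slc27a2 window, 42 of the Dusp1 window, 58 of the Aldh4a1 window and 39 of the Id3 window. A window holds 130 bases, so any peak end within it is close to the annotated start of transcription. Of the windows not shown, that of Grcc10 (lean 4) was covered over all 130 bases. Those of Ctnnd1 (lean 4) and Mrfap1 (db/db 1) were covered over 25 bases each, and that of Qsox1 (db/db 1) over 0. The 4 peaks were 617 bases long in Slc27a2 (db/db 1, fold 10.2), 334 in Dusp1 (db/db 1, fold 14.98), 321 in Aldh4a1 (db/db 3, fold 8.05) and 348 in Id3 (lean 4, fold 22.1). The letters GGAC, the common core of m6A sites, occurred 3 times on the gene's strand of the Dusp1 window, 2 times in Id3 and 1 time in Slc27a2. On the opposite strand they occurred 0, 1 and 2 times in these windows, and in Aldh4a1 0 times on either strand. Of 32851 such windows, 37.7% held GGAC on the gene's strand and 37.7% on the other, so these matches describe the windows and mark no site.

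A long peak also held a whole microRNA hairpin. The Chpf2 peak of lean 1 (chr5:24592036-24592336 of mm10, 301 bases, fold 55.2) covered Mir671, on the plus strand. Its mature forms are shown for reference, with the seed, bases 2 to 8, in capitals; the arms have different seeds.
mmu-miR-671-5p: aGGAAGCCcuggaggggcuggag
mmu-miR-671-3p: uCCGGUUCucagggcuccacc

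Long peaks were found in every liver, in widely different numbers. The db/db livers had 219, 80, 222 and 54 long peaks, and the lean livers had 179, 70, 77 and 76. The numbers of the genotypes overlapped, with db/db 3 highest and db/db 4 lowest of all 8. Livers of db/db mice averaged 143.75 ± 89.3 long peaks and lean livers 100.5 ± 52.4 (SD, n = 4 each), a difference of 43.25 (exact permutation test, two-sided, p = 0.343; the smallest p that 4 against 4 livers can give is 0.0286). The difference was 17.2 without db/db 3, 18.2 without db/db 1, 73.2 without db/db 4 and 69.4 without lean 1. As a share of their list, long peaks made up 4.56%, 2.83%, 6.10% and 1.27% in db/db livers, against 4.07%, 2.34%, 3.11% and 2.61% in lean livers (exact permutation p = 0.543). Without db/db 3, the difference of the mean shares, 0.653 percentage points over all livers, was -0.151. With every list held to its 2475 peaks of highest fold, the difference in number was -0.50 peaks. The median fold percentile within a list averaged 30.2 for long and 50.6 for shorter peaks over the 8 livers. The cut thus drops long peaks more readily, and it drops more peaks from longer lists. It does not correct for list length alone.

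Peak length as a whole went with these numbers at the extremes, but not in every liver. The median length of all peaks was 84, 73, 88 and 53 bases in the db/db lists and 76, 70, 74 and 76 bases in the lean lists, so that db/db 3 had both the highest median and the most long peaks, and db/db 4 the lowest median and the fewest. Lean 1 and lean 4 had the same median, 76 bases, with 179 and 76 long peaks. The part of read depth or fragment size in these lengths and numbers was not tested. Long peaks held between 7.54% and 22.6% of all bases listed for a liver.

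**Figure D1:**
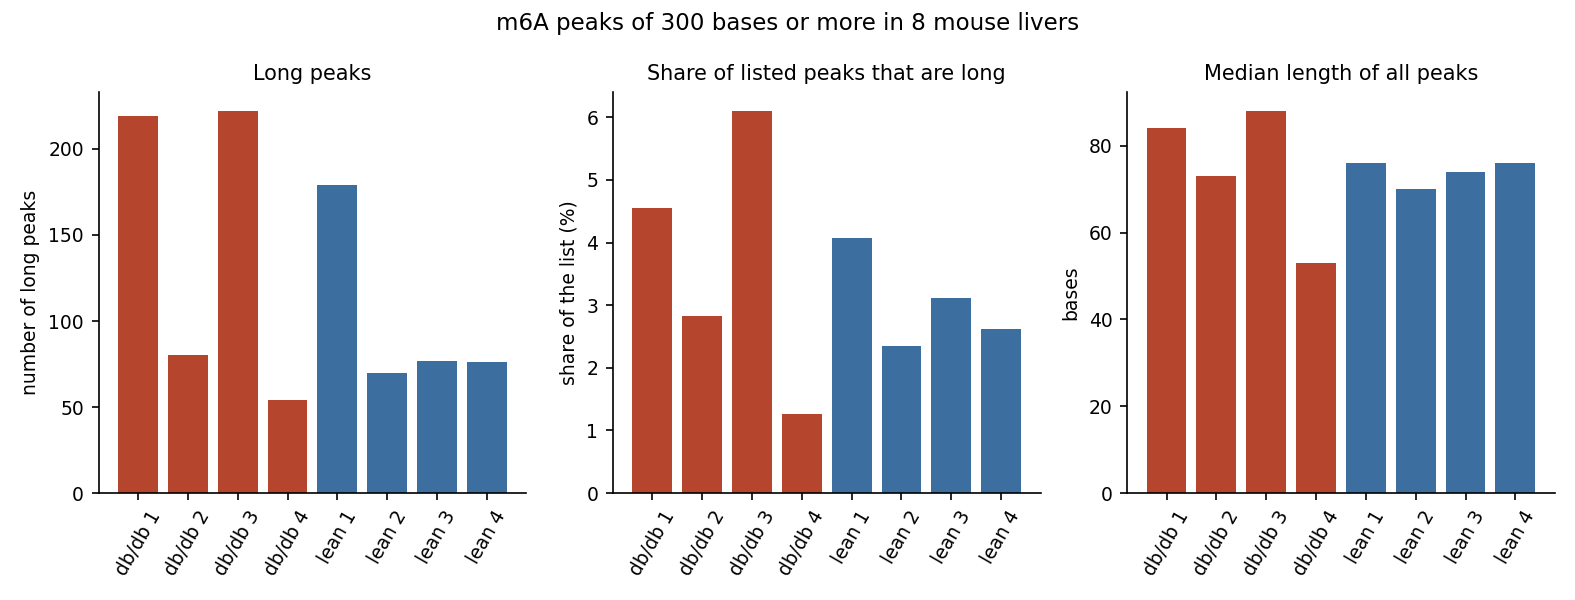
Number of peaks of 300 bases or more, their share of the list in percent, and the median length of all peaks in bases, 1 bar per liver (red, db/db; blue, lean). The db/db livers lie at both ends, with 222 long peaks in db/db 3 and 54 in db/db 4.

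Most long peaks were only moderately long. Their median was 398 bases, and 716 were under 500 bases, 242 had 500 to 999 and 19 had 1000 or more. The median length of long peaks averaged 398 ± 17.9 bases in db/db livers and 394 ± 12.9 in lean livers (SD, n = 4 each, exact permutation p = 0.743). Just inside the threshold, 32 peaks of 300 to 304 bases had a median fold of 7.79, and just outside it, 34 peaks of 295 to 299 bases had a median fold of 7.42.

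Long peaks had lower folds and higher scores than shorter peaks of the same list. Fold enrichment is the authors' own ratio to the background of the list, and the score is -10 times the log10 of the peak's p-value. Both come from the signal that also sets the length, so they are given as a description without a test. The median fold of long peaks was 8.41, 8.03, 8.22 and 7.59 in db/db livers and 8.08, 7.91, 9.32 and 8.50 in lean livers, and that of shorter peaks lay between 9.74 and 13.2. The median score of long peaks lay between 154 and 263, and that of shorter peaks between 78.6 and 94.8. In all 8 lists the long peaks were thus lower in fold and higher in score. Within each list, long peaks had a median fold percentile of 29.7 ± 5.19 in db/db livers and 30.8 ± 4.35 in lean livers (SD, n = 4 each, exact permutation p = 0.60).

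Fold did not go down steadily with length. Its median, averaged over the 8 lists, was 12.0 ± 1.32 for peaks of 50 to 99 bases, 10.2 ± 0.681 for 100 to 199, 8.61 ± 0.620 for 200 to 299, 7.99 ± 0.617 for 300 to 499 and 9.44 ± 1.32 for 500 or more (SD, n = 8). The single commonest fold of a list, between 12.6 and 21.4, was held by 4.74% to 8.22% of its shorter peaks and by none of its long peaks.

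**Figure D2:**
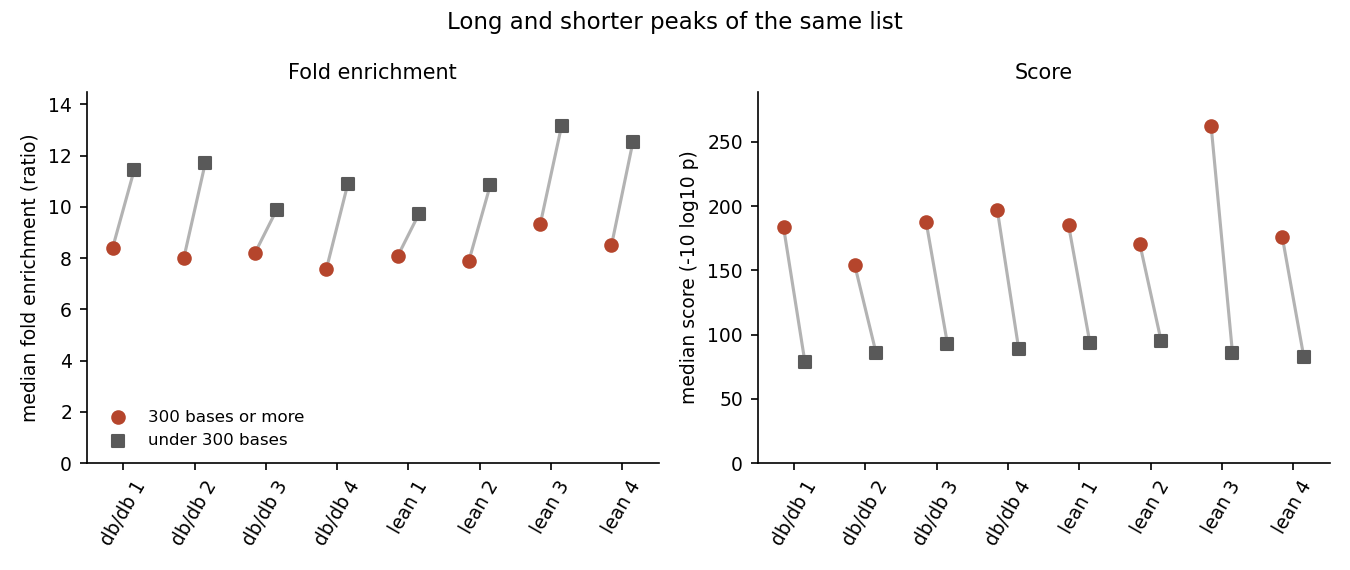
Median fold enrichment (left, ratio) and median score (right, -10 times the log10 of p) of long peaks (red circles) and shorter peaks (grey squares) in each liver, joined by a line. In every liver the long peaks are lower in fold, at 7.59 to 9.32, and higher in score, at 154 to 263.

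A few long peaks stood far above the rest in fold. Those of Lars2, the leucyl-tRNA synthetase of mitochondria, had folds of 8015, 17203, 34459 and 12593 in db/db livers and 37285, 64391, 3380 and 10387 in lean livers, at chr9:123461757-123462210. Whether copies of this sequence elsewhere in the genome add reads to it was not tested. Outside Lars2, 3 long peaks were over 100-fold, in Ceacam2, a cell adhesion protein (db/db 1, fold 205), in Rpl13a, a ribosomal protein whose introns hold small nucleolar RNAs (lean 1, 153), and in Grcc10 (lean 4, 149). The last 2 overlapped a small RNA gene, as did 13 of the 977 long peaks. These 13 lay in 6 genes, and 7 of them in Hspa8, a constitutive heat shock chaperone whose introns hold small nucleolar RNAs.

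Long peaks recurred between livers more often than shorter ones. The midpoint of a long peak lay inside a peak of at least 1 other liver in 67.6%, 95.0%, 91.0% and 100% of cases in db/db livers and in 88.3%, 98.6%, 97.4% and 78.9% in lean livers. For shorter peaks this share lay between 36.6% and 60.4%, below that of the long peaks in all 8 livers. The within-liver difference averaged 40.3 ± 10.9 percentage points (SD, n = 8, exact sign-flip permutation test, two-sided, p = 0.0078, the smallest that 8 livers can give). Adjusted by Benjamini-Hochberg over the 8 tests run, p was 0.0625 and missed 0.05. Long peaks also had the higher scores. Among peaks with a p of at most 1e-10 the difference was 32.9 points (exact sign-flip p = 0.0078). This limit does not match long and shorter peaks on score, so the part of the score in recurrence was not tested. A midpoint is also met more easily where the peak of the other liver is wide. The widths of those peaks were not matched, so their part was not tested either.

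The share was higher in each longer class, with most of the difference below the threshold. It averaged 26.3% for peaks under 50 bases, 47.3% for 50 to 99, 71.5% for 100 to 199, 85.8% for 200 to 299, 89.0% for 300 to 499 and 90.8% for 500 or more. Of the long peaks, 165 (16.9%) lay in a peak of all 7 other livers and 135 (13.8%) in none. Of those 135, 71 were in db/db 1, and their median fold was 6.79, against 9.52 for the 148 long peaks of that liver that were met elsewhere. Between genotypes, recurrence of long peaks averaged 88.4% ± 14.4 in db/db livers and 90.8% ± 9.14 in lean livers (SD, n = 4 each, exact permutation p = 0.80), and without db/db 1 the difference was 4.53 percentage points in place of -2.40.

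**Figure D3:**
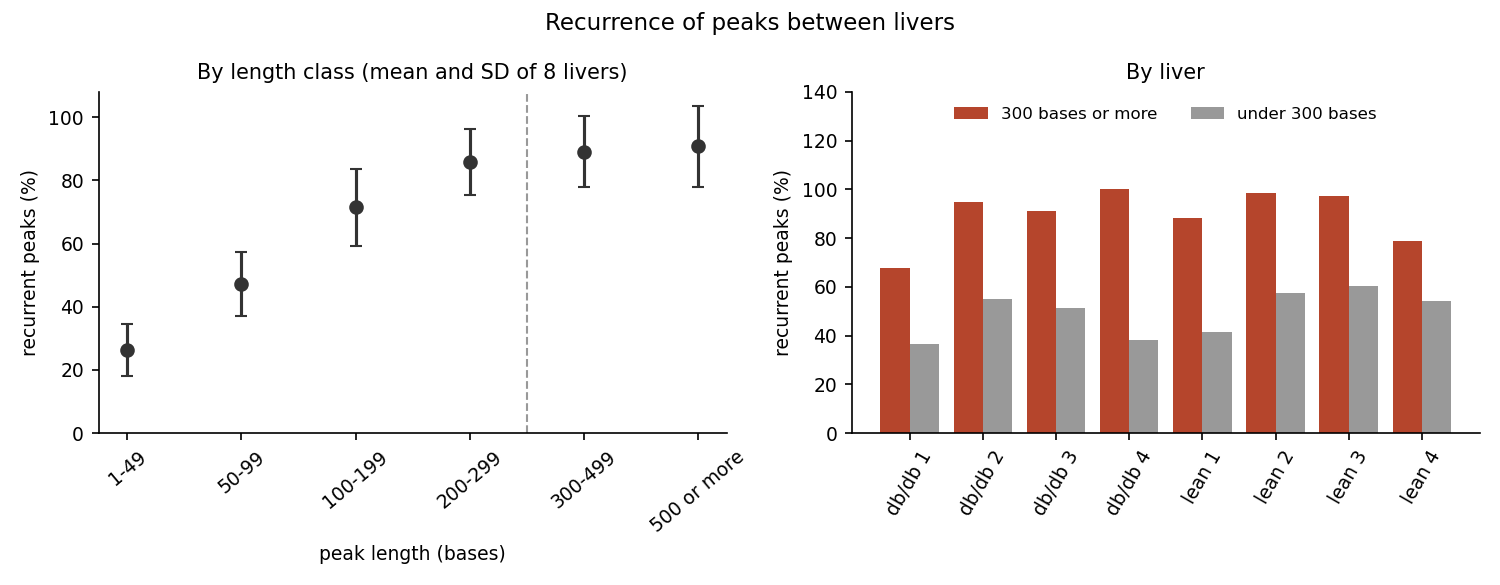
Share of peaks whose midpoint lies in a peak of another liver, in percent, by length class (left, mean and SD of 8 livers; dashed line, the threshold of 300 bases) and by liver (right; red, long; grey, shorter). Long peaks are above shorter ones in all 8 livers, and the share is 85.8% already at 200 to 299 bases.

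A recurring place did not always carry a long peak in the other livers. Over the 454 regions there were 2668 pairs of a region and a liver without a long peak, and of these 67.1% had no peak, 28.8% had 1 shorter peak and 4.05% had several shorter peaks. The exact ends varied. A start or an end was shared to the base with a peak of another liver by 198 long peaks, and both ends by 18. Per liver this was 21.8% ± 4.34 of long and 20.0% ± 5.14 of shorter peaks for one end, and 2.16% ± 1.13 and 4.36% ± 1.46 for both (SD, n = 8). Serpina3m, a serine protease inhibitor that the liver secretes, was a case of shared ends, with a peak of 649 bases in db/db 1, in lean 1 and in lean 2.

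Long peaks lay towards the 3′ end of their genes. Strand was known for 74.6% of them, under the 80% set for a check, so that positions along the strand are a description and carry no test. The midpoint of the median long peak lay at 81.3%, 84.9%, 88.2% and 92.1% of the gene's span from its 5′ end in db/db livers and at 91.5%, 85.3%, 95.2% and 81.6% in lean livers. For shorter peaks the medians lay between 53.2% and 65.7%. The last 10% of the span held 48.5% ± 10.04 of long and 25.5% ± 2.53 of shorter peaks, and the first 10% held 2.29% ± 3.24 of long and 25.9% ± 2.64 of shorter peaks (SD, n = 8). Shorter peaks were thus common at both ends, and long peaks at the 3′ end. Spans are genomic and include introns, and whether a peak crosses an intron was not known.

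The distance to the nearer end of the gene needs no strand, but it does not tell the 5′ end from the 3′ end. It therefore cannot show whether long peaks lie more towards the 3′ end. It had a median of 11.4% ± 3.02 of the span for long and 9.68% ± 0.776 for shorter peaks (SD, n = 8), a difference of 1.67 percentage points with 5 livers above and 3 below 0 (exact sign-flip permutation p = 0.164). In genes over 5000 bases the difference was -0.51 points (exact p = 0.43), and at a threshold of 400 bases it was 4.46 points (exact p = 0.0078). Genes with a long peak were also shorter, with a median span of 20.2 kb, against 26.9 kb for other genes with a peak, and 19.3% of them spanned at most 5 kb, against 10.4%.

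**Figure D4:**
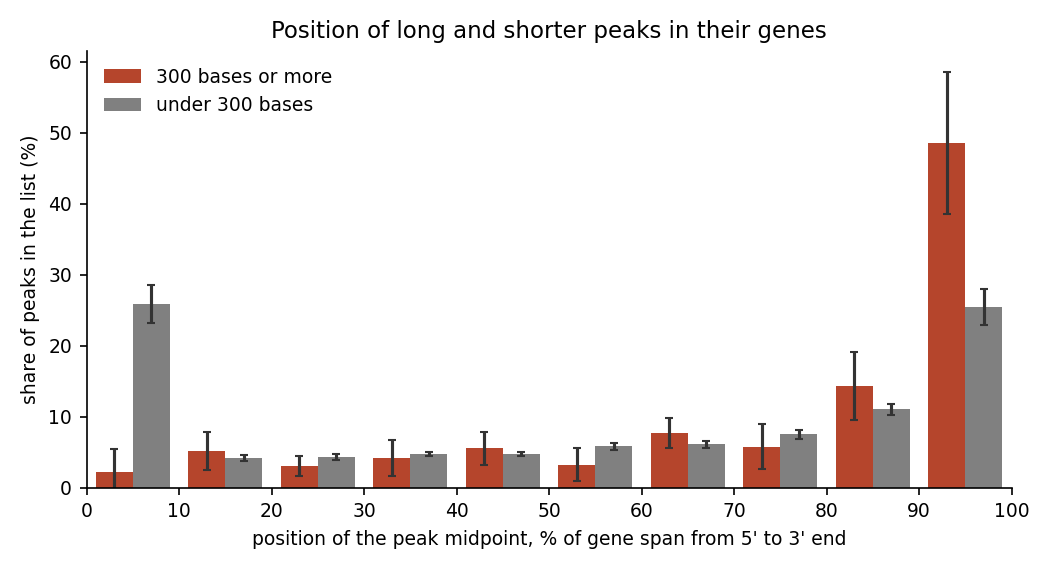
Position of peak midpoints along the gene's span from the 5′ to the 3′ end in steps of 10%, for long peaks (red) and shorter peaks (grey), as the share of peaks in percent (mean and SD of 8 livers). Long peaks have 48.5% in the last step and 2.29% in the first, and shorter peaks have 25.5% and 25.9%.

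Only a small set of regions had a long peak in most livers. A long peak was present in 1 liver for 271 of the 454 regions, in 2 for 65, in 3 for 38, in 4 for 27, in 5 for 12, in 6 for 18, in 7 for 11 and in all 8 for 12. Of the 454, 11.9% had a peak of some length in every liver, against 0.955% of the other regions. Regions with a long peak are wide by definition and can join peaks of more livers, so this contrast is a description only. The 12 regions with a long peak in every liver were those of Jund, Jun, Hist1h1c, Tor1aip2, Rnf144b, Zfp91, Irgm1, Lars2, Wdr26 and Mdfic and of the predicted genes C130074G19Rik and Gm7292.

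Jund and Jun, transcription factors of the AP-1 family, were both in this set. Jund (chr8:70699712-70700482) had peaks of 725, 694, 707 and 712 bases in db/db livers and of 739, 695, 700 and 506 bases in lean livers. Jun (chr4:95049732-95050417) had 511, 592, 577 and 502 bases in db/db livers and 602, 543, 304 and 556 bases in lean livers. The lengths overlapped between genotypes in both, and both genes have no intron. Jund carried a second region with a long peak in db/db 1 only, of 474 bases.

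The remaining regions of the set lay in genes of varied roles. Hist1h1c, a linker histone, had peaks of 904, 647, 706 and 591 bases in db/db livers and 743, 541, 342 and 730 bases in lean livers, at chr13:23739411-23740348. This region ran past the annotated end of the gene, and reads of near-identical histone genes may be shared with it. Tor1aip2, a partner of torsins in the nuclear envelope and endoplasmic reticulum, had peaks of 501 to 749 bases in db/db livers and 466 to 560 in lean livers. Rnf144b and Zfp91, both with ubiquitin ligase activity, had peaks of 423 to 733 and 407 to 695 bases in db/db livers, and of 460 to 585 and 418 to 467 bases in lean livers. Irgm1, an interferon-induced GTPase, had 402 to 603 bases in db/db livers and 308 to 611 in lean livers. Wdr26, a subunit of a ubiquitin ligase complex, and Mdfic, a regulator of transcription factors, had the shorter peaks, at 343 to 492 bases in db/db livers and 304 to 479 in lean livers. In each of these 7 genes the ranges of the genotypes overlapped.

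Crp and Bag4 were named among the regions with a long peak in 7 livers. Crp, the C-reactive protein, had peaks of 922, 822, 913 and 855 bases in db/db livers and of 883, 854 and 851 bases in 3 lean livers, with no peak in lean 4. Bag4, a co-chaperone, had peaks of 353 to 721 bases in db/db livers and of 364 to 782 bases in 3 lean livers, with none in lean 2. Among the 41 regions with a long peak in at least 6 livers, lean 4 had a long peak in 25 and no peak in 14, the fewest of any liver. The other 7 livers had a long peak in 32 to 40 of them.

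**Figure D5:**
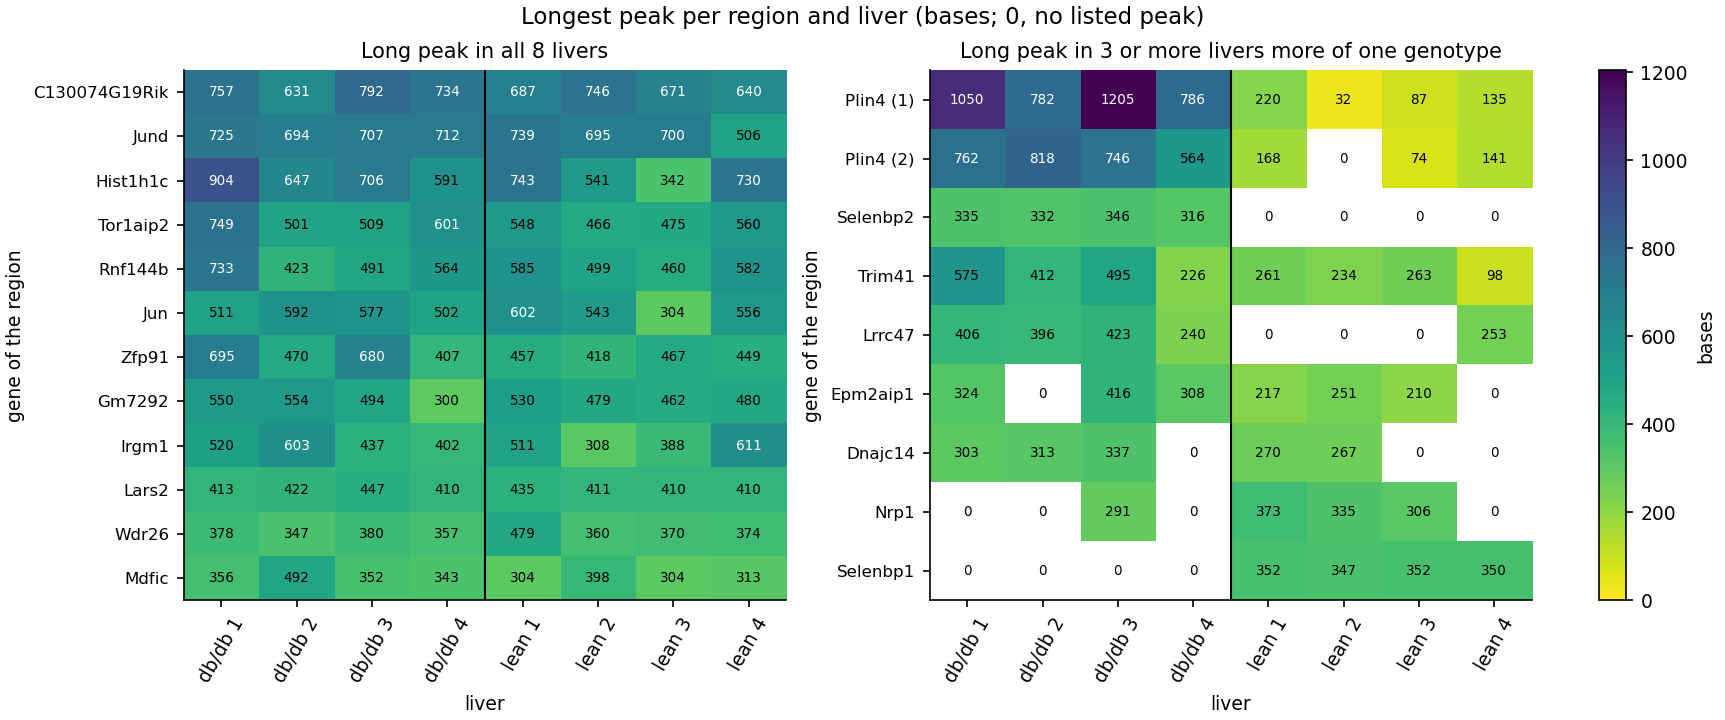
Length in bases of the longest peak per liver, db/db left of the line and lean right of it, for the 12 regions with a long peak in all 8 livers (left) and the 9 regions with at least 3 more livers of one genotype (right; white, no listed peak). The 2 Plin4 regions have 564 bases or more in each db/db liver and at most 220 in lean livers.

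The difference in peak length between db/db and lean livers was wide in Plin4, perilipin 4, a protein with long repeats that coats lipid droplets. Its region at chr17:56106096-56107311 had peaks of 1050, 782, 1205 and 786 bases in db/db livers, and its longest peaks in lean livers were 220, 32, 87 and 135 bases. The region at chr17:56104183-56105522 had 762, 818, 746 and 564 bases in db/db livers, against 168, 74 and 141 bases in lean 1, 3 and 4 and no peak in lean 2. That the groups did not overlap follows from the choice of regions with a long peak in every db/db liver and in no lean liver. A shorter peak at the same place was listed in 7 of the 8 pairs of a lean liver and a region. Summed over the gene, listed peaks covered 1961 ± 576 bases in db/db livers and 337 ± 274 bases in lean livers (SD, n = 4 each). The folds overlapped, with medians over the gene's peaks of 11.9, 9.52, 11.2 and 8.19 in db/db livers and 9.59, 5.15, 10.2 and 11.1 in lean livers. Expression of Plin4 was not measured by these lists, and its part in the lengths was not tested.

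Counted over all regions, contrasts of this size were few. A long peak was listed in all 4 db/db livers and no lean liver in 3 of 17936 regions (0.0167%), the 2 of Plin4 and 1 of Selenbp2. The reverse held for 1 region (0.00558%), of Selenbp1. Only the 454 regions with a long peak could meet either count. The Plin4, Selenbp2 and Selenbp1 regions are described by their counts, since they were picked for the contrast. A peak of any length was listed in 4 db/db and no lean livers in 13 regions (0.0725%), of which those of Selenbp2 and Olig1 held a long peak. In 4 lean and no db/db livers it was listed in 17 regions (0.0948%), of which that of Selenbp1 held one. Of the 454 regions, 3 (0.661%) thus had a complete split, against 0.167% of all regions, and the smallest p of Fisher's exact test, 0.0286, was 1 after Benjamini-Hochberg adjustment over all regions. At that unadjusted p there were 30 regions in all. The long peaks of Selenbp2 had 335, 332, 346 and 316 bases in db/db livers and those of Selenbp1 352, 347, 352 and 350 bases in lean livers. The genes are near-identical neighbours on chromosome 3 that encode selenium-binding proteins, and reads may be shared between them. Olig1, a transcription factor known from glia, had a long peak in 1 of its 4 db/db livers.

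A difference of at least 3 livers is possible only in regions with a long peak. It was reached in 7 regions with more db/db livers (0.039% of all) and in 2 with more lean livers (0.0112%). These include the 3 and 1 regions above, which left 4 regions with 3 more db/db livers and 1 with 3 more lean livers. The 4 all had a shorter peak in at least 1 lean liver. In Trim41, a ubiquitin ligase, the longest peaks were 575, 412, 495 and 226 bases in db/db livers, against 261, 234, 263 and 98 bases in lean livers. In Lrrc47, they were 406, 396, 423 and 240 bases in db/db livers, against 253 bases in lean 4 and no peak in the other lean livers. Epm2aip1, a partner of laforin in glycogen metabolism, and Dnajc14, a co-chaperone, each had a long peak in 3 db/db livers and shorter ones of 210 to 270 bases in lean livers. On the lean side, Nrp1, a co-receptor of VEGF and semaphorins, had long peaks of 373, 335 and 306 bases in lean 1, 2 and 3, against 1 peak of 291 bases in db/db 3. Each of these 5 differences was smaller at 250 bases, at 1 liver in Trim41 and Dnajc14 and 2 in Lrrc47 and Epm2aip1, and 2 more lean livers in Nrp1. At 400 bases they were 3 in Trim41, 2 in Lrrc47, 1 in Epm2aip1 and 0 in Dnajc14 and Nrp1. The differences of Selenbp2 and Selenbp1 were also 0 at 400 bases.

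The rule for naming genes also takes regions with a difference of 2 livers. Gna12, a G protein subunit, had peaks of 1146, 544, 926 and 636 bases in db/db livers, against 851 and 523 bases in lean 1 and lean 3. Kdr, the VEGF receptor of endothelial cells, had a long peak in 2 db/db livers, of 521 and 354 bases, and in all 4 lean livers, of 435, 493, 451 and 476 bases. Abca1, the cholesterol efflux pump, had long peaks in lean 1 and lean 3, of 492 and 453 bases, and no peak at that region in db/db livers. Bod1, of mitosis, Tlcd1, of membrane lipids, Serpina3m and Atp6v0c, of the proton pump, were the others that the rule takes for more lean livers. Of all 17936 regions, 36 had a long peak in at least 2 more db/db livers and 11 in at least 2 more lean livers. These counts include the regions with larger differences above and were not tested. The db/db livers held 575 long peaks in total and the lean livers 402, so the counts do not start from equal numbers. The rule limits the regions named per direction, so the genes named here do not reflect the counts. The Tlcd1 peaks overlapped a small nucleolar RNA gene, and the region named for Atp6v0c lay on chromosome 6, off the annotated gene.

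Long peaks seen in 1 genotype alone were mostly seen in 1 liver alone. Of the 454 regions, 205 (45.2%) had a long peak in db/db livers only, 95 (20.9%) in lean livers only and 154 (33.9%) in both. For a peak of any length the shares over all 17936 regions were 48.3%, 34.1% and 17.6%. The livers had unequal totals, 575 long peaks in db/db and 402 in lean livers. Without db/db 1, a comparison chosen after the data were seen, 104 of 353 regions had a long peak in db/db livers only and 113 in lean livers only. That count has fewer db/db than lean livers, which by itself lowers the db/db number. No other liver was left out for it, so it cannot decide what the order of the genotypes rests on. Over all 8 livers, 182 of the 205 rested on 1 liver, as did 89 of the 95, which left 23 and 6 regions with at least 2 livers. This count was not made for peaks of any length, so it does not set long peaks apart. Of all shorter peaks, 52.6% had their midpoint in no peak of another liver, against 13.8% of long peaks.

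The longest peaks described here lay in genes of different span. Dynll2, a dynein light chain, had 2046 bases in lean 4 and no peak there in any other liver, in a gene that spans 24293 bases. Rrbp1, a ribosome-binding protein of the endoplasmic reticulum, had 618, 1542 and 366 bases in db/db 2, 3 and 4, against 1489 and 1116 bases in lean 2 and 3. Ppp1r3c, which targets a phosphatase to glycogen, had 1436 bases in lean 4 only. Cebpb, a liver transcription factor without introns whose gene spans 1518 bases, had 1427 bases in db/db 1, 775 in lean 1 and 352 in lean 3, with peaks of 226 to 293 bases in the other 5 livers. Hspa8 had 1423 bases in lean 1, and Glyctk, glycerate kinase, 1308 bases in db/db 1 only.

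Plec, which encodes plectin, a very large linker of the cytoskeleton, had the most separate long regions, 9. They were unevenly spread over livers. In db/db livers 8, 1, 2 and 0 of its 15, 7, 6 and 6 peaks were long, and in lean livers 0, 1, 1 and 0 of 1, 4, 4 and 3. Most of its long peaks thus came from db/db 1. Irf2bp2, a transcriptional corepressor, had 3 long regions, and Jund, Plin4, Pcdh1, a protocadherin, and Wdr81, of endosome and autophagy control, were the next named.

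Long peaks were found in 10 of the 18 gene lists followed, and no list was tested for this. For all genes with a peak, 5.07% had a long one. In the list of stress response and immediate early genes, 5 of 14 genes with a peak had a long one, namely Jun, Nfe2l1, Gadd45g, Hspa1b and Hspa1a. Nfe2l1, which controls proteasome genes, had long peaks of 384 to 802 bases in 3 db/db and 4 lean livers. Hspa1a and Hspa1b, inducible Hsp70 genes that are near-identical, had theirs in db/db livers only, in 1 and 2 of them. Of the lipid uptake and droplet list, 4 of 13 had a long peak, all in db/db livers: Plin4 in 4 livers, and Plin5, a perilipin of oxidative tissues, Lrp1, a lipoprotein receptor, and Slc27a2 in db/db 1 alone.

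Of the list of hepatocyte nuclear receptors and factors, 3 of 13 had a long peak: Cebpb in 1 db/db and 2 lean livers, Nr5a2 in 1 of each and Foxa1 in 1 db/db liver. Of the cholesterol, lipoprotein and bile acid list, 3 of 13 did: Abca1 in 2 lean livers, Insig2, which retains the SREBP regulator, in 1 lean liver and Scarb1, the HDL receptor, in 1 db/db liver. In the insulin and glucose list, 2 of 15 did, with Pik3r1, the regulatory subunit of PI3 kinase, in 3 db/db livers and 1 lean liver and Foxo3 in 1 db/db liver. In the chromatin list, 6 of 40 did, led by Chd7 in 1 db/db and 2 lean livers and Ep300 in 2 lean livers. Of m6A factors, 2 of 17 did: Zc3h13, a subunit of the writer complex, in 1 db/db and 1 lean liver, and Ythdf2, a reader that promotes decay, in 1 lean liver.

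Markers of other liver cells were among the genes with long peaks. Of 16 sinusoidal endothelial markers with a peak, 4 had a long one, Kdr, Ptprb, Eng and Oit3. Lrat, of retinoid-storing stellate cells, had long peaks in 2 db/db livers and 1 lean liver, the only 1 of 13 stellate cell markers, and Clec4f, of Kupffer cells, in 1 db/db liver, 1 of 9. No gene with a peak had a long one in the lists of lipogenesis (11 genes with a peak), fatty acid oxidation (13), plasma proteins (7), the circadian clock (14), the proteasome (16), hepatocyte markers (5), cholangiocyte markers (3) or lymphocyte markers (2).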

How the data were processed

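Peak positions, lengths, fold enrichment and scores are those that the authors deposited, 1 list per liver. Peak names are those that MACS writes, per the file headers; the caller's version and settings are not given in the sources used here. Cutadapt 1.9.3, HISAT2 2.0.4 and the build mm10 are named in the submitters' processing notes. Fold enrichment is a deposited ratio, and the score a deposited -10 log10 p-value, 50 at least. Starts were converted to count from 1. Gene bounds, promoter windows and microRNAs were from RefSeq (GRCm38.p6); no genome sequence was used.

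With pandas 2.3.3 and scipy 1.17.1, values per liver were compared over 70 assignments of livers, long with shorter peaks over 256 sign flips, and regions by Fisher's exact test. The functions were tested on simulated data. Alternatives were thresholds of 250 and 400 bases, a stricter p, equal list lengths, joined peaks, other definitions of recurrence and presence, a replicate block, removal of small RNA genes and leaving out each liver. The threshold, the gene lists and the members were chosen with earlier results of these data known. Named were the 12 regions with long peaks in most livers, the 8 longest peaks, up to 8 regions per direction of largest genotype difference, the 6 genes with most long regions and up to 3 genes per list; others named were chosen after their values were seen. A region that this rule takes is not reported here. The labels mark mice as separate samples.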

Additional observations from a re-analysis of the deposited data

Results flagged for a closer look

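Of 26 groups of 4 livers looked at, 3 held a liver far from the others, where chance flags about 1 in 20. Lean 1 had 179 long peaks, against 70 to 77 in the other lean livers. It also had 177 genes with a long peak, against 68 to 77. The median score of long peaks was 263 in lean 3, against 170 to 185 in the other lean livers.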

How the results depend on the processing

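The recurrence of long above shorter peaks kept its direction under all 15 alternatives, at 32.9 to 43.7 percentage points; its unadjusted p was the smallest possible each time and says nothing more of stability. Differences between db/db and lean livers in number, share, genes, median length, fold percentile and recurrence passed 0.05 under none of theirs. Number and genes kept their sign under 14 of 15 alternatives, share under 13 of 15, length under 12 of 15, fold percentile under 10 of 15 and recurrence under 12 of 16; the cause of the changes was not tested. At equal list lengths they were -0.50 long peaks, -0.0202 points of share, -1 gene and 7.31 points of recurrence. That cut was by fold, in which long peaks ranked low, so it does not correct for list length alone. At 250 bases the median length differed by -0.625 bases and the fold percentile by 0.512, and the fold percentile differed by 1.64 at 400 bases and by 2.45 with peaks within 100 bases joined. With each liver left out in turn, the number differed by 17.2 to 73.2, the genes by 11.4 to 66.1, the share differed by -0.151 to 1.46 points, the median length by -0.917 to 11.9 bases, the fold percentile by -3.54 to 1.08 and recurrence by -7.23 to 4.53 points.

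The distance to the nearer gene end, long minus shorter, was 4.46 points at 400 bases (exact sign-flip p = 0.0078), 3.49 at a p of at most 1e-10 (exact p = 0.0312) and -0.51 in genes over 5000 bases. Among regions that hold a long peak, the 3 with a peak of any length in 4 livers of one genotype and 0 of the other became 6 at 250 bases, 0 at 400, 1 at a p of at most 1e-10, 1 at equal list lengths, 6 with peaks joined, and 3 to 8 with each liver left out, where 3 livers sufficed in that genotype. The Bod1 difference of livers was 1 at 400 bases, the other way round. The Plin4 region at 56106096 kept its difference of 4 livers at both other thresholds, at equal list lengths and with peaks joined, and had 3 at a p of at most 1e-10; that at 56104183 had 3 at equal list lengths, with peaks joined and at that p. Selenbp2 had 0 at 400 bases and 3 at equal list lengths, and Selenbp1 0 and -1, and -3 at that p.

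Mouse numbers were not taken to pair the mice. Correlations of same-numbered lists were -0.0353 to 0.00364, and 0 of 8 livers lay closest to their own number. Correlations of differently numbered db/db and lean lists were as small, at -0.0331 to 0.0363, so this measure cannot decide whether the numbers pair the mice. The small values do not mean that the lists share no places. Of 17936 regions, 3151 had a peak in livers of both genotypes. With the number as a replicate block, the smallest possible p is 0.125, and the differences between db/db and lean livers had exact p of 0.375 (number of long peaks) to 0.875 (median length). Depth was unknown, so what it limits was not tested.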
